A study of Mus musculus with 6 samples.

Results

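The 52 genes described here encode RNA polymerase I and the factors that turn its transcript into ribosomal subunits. They were taken from a list of symbols, and each was read from the brightest probe set that names it alone; 50 of the 52 had such a probe set, among 22180 genes measured that way. The other 2, Fbl (fibrillarin) and Tsr1, lay only on probe sets that also name a second gene (Tulp4 and Srr), and are not analysed here. By role, the measured members were 7 genes of RNA polymerase I and its initiation factors, 6 of 7 core proteins of small nucleolar ribonucleoproteins (snoRNPs), 18 of 19 factors of the small ribosomal subunit, 14 of the large subunit and 5 nucleolar proteins with several roles.

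Mouse cumulus-oocyte complexes (COCs), oocytes enclosed by their somatic cumulus cells, were cultured with 5 µM Torin1, a catalytic-site inhibitor of the kinase MTOR (3 samples), or with the vehicle DMSO, which the labels also list at 5 µM (3 samples). Per the labels, all COCs came from wildtype females given 5 IU of equine chorionic gonadotropin for 46 h, and 100 COCs per group were kept in medium with 3 mg/ml albumin and 5 µM milrinone, which holds oocytes at the germinal vesicle stage. The labels disagree on the age of the mice (21 or 23 days) and on the culture time (14 or 16 h). They do not say whether the 3 sets came from separate mice or days, and the p-values here speak only of the spread among 3 samples a group, part of which may be technical. Each sample pools cumulus cells with oocytes, which the labels call transcriptionally silent, so fewer cells of a type and less RNA per cell cannot be told apart.

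Ribosome production starts in the nucleolus, where RNA polymerase I transcribes a long precursor of the ribosomal RNAs. Box C/D and box H/ACA snoRNPs modify this precursor, while large assemblies of processing factors fold and cut it and load ribosomal proteins. Small and large subunits then mature along separate routes and leave for the cytoplasm. MTOR is known to promote this programme at several steps, among them the activity of the polymerase I initiation factor encoded by Rrn3 and the translation of messages for the ribosomal machinery. Cumulus cells of growing follicles divide and synthesise protein actively, whereas a fully grown oocyte lives on stored transcripts.

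Array medians ran from 11.1 to 11.97 intensity units. On the first principal component, 67.2% of the variance, Torin1 arrays scored 29.9 to 37.1 and DMSO arrays -33.1 to -31.2. On the second (16.5%), Torin1 sample 3 scored 30.4 and stood apart from Torin1 samples 1 and 2 (-14.1 and -19.8). The description of Torin1 sample 3 carries the short name of sample 2, but these 2 arrays shared identical values at only 18 of 41345 probe sets. Of 18 oocyte markers 0 were below the median gene in both groups. That gene stood at 4.17 in log2(intensity + 1), and Figla lay just under it in DMSO alone (mean 4.16). Of 14 measured cumulus and granulosa markers only Gatm was below the median gene in both groups. Amh, Amhr2 and Slc38a3 were below it in Torin1 alone (means of 3.77, 4.04 and 4.10). Among markers of other cells, 6 of 7 immune, 5 of 7 surface epithelium, 3 of 6 endothelial and 3 of 6 theca genes were below the median gene in both groups, and no erythroid marker was measured.

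All level values below are log2(intensity + 1), and changes are Torin1 minus DMSO on that scale with a standard error (SE) from limma. Of the 50 measured members 7 were called higher, 2 lower and 41 were not called at an adjusted p below 0.05. Over all genes 5.13% were called higher and 6.94% lower (12.1% in either direction). Every member lay above the median gene, so the brighter 11090 genes are the closer background, and there 9.46% were called higher and 12.6% lower (22.1% in all). Against these shares, 14.0% of the members were higher, 4.0% were lower and 18% were called. At an unadjusted p below 0.05 limma had 16 members higher (32%) and 2 lower (4.0%), beside 19.6% and 21.6% of the brighter genes and 11.3% and 12.7% of all genes. The changes of members ran from -0.67 for Nop10 to 0.66 for Nop2, and the median was 0.15, beside 0.01 for all genes. When an array was left out, this median ran from 0.11 (without Torin1 3) to 0.24 (without DMSO 1). A change above 0 was seen in 42 of 50 members (84.0%), against 52.8% of all genes and 51.8% of the brighter ones. The groups did not overlap for 18 members (36%), beside 44.4% of the brighter genes and 28.6% of all genes. Of these 18, 15 were higher and 3 lower, while the brighter genes split into 22% higher and 22.4% lower (14.3% each way over all genes). Leaving out an array ended many of the member calls, with 1 or 2 members lower each time. Members higher numbered 0 without DMSO 2 or DMSO 3 and 1 without Torin1 2. They numbered 2 without Torin1 1 or Torin1 3 and 6 without DMSO 1.

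**Figure D1:**
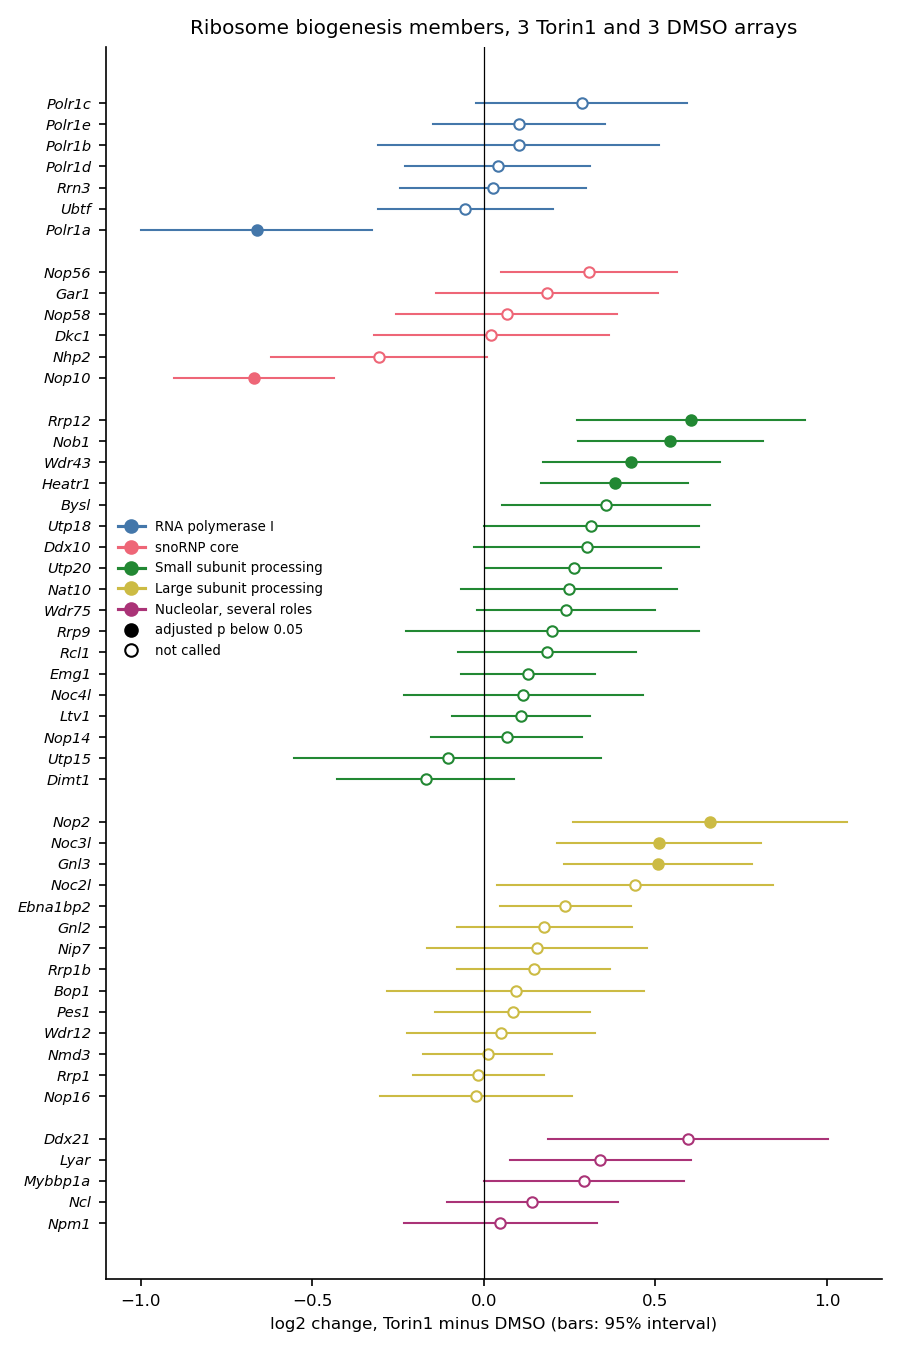
Log2 change (Torin1 minus DMSO, x axis) of the 50 measured members, grouped by role from top to bottom, with 95% intervals from limma. Filled points mark the 9 members called at an adjusted p below 0.05; most points lie between 0 and 0.5, with Polr1a and Nop10 apart on the lower side.

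The largest called rise was that of Nop2, whose product methylates the RNA of the large subunit. It read 7.28, 7.25 and 7.63 in Torin1 samples 1, 2 and 3, against 7.04, 6.47 and 6.68 in DMSO samples 1, 2 and 3. All Torin1 values lay above all DMSO values, with DMSO sample 1 the nearest, and the change was 0.66 ± 0.17 (SE), or 1.58-fold (adjusted p = 0.0489). The largest called fall was that of Nop10, which encodes the smallest core protein of box H/ACA snoRNPs, the particles that guide pseudouridylation. Nop10 read 6.86, 6.93 and 6.74 in the Torin1 samples and 7.67, 7.41 and 7.46 in the DMSO samples. Here every Torin1 value lay below every DMSO value by a wide margin, and the level fell by 0.67 ± 0.10 (SE), to 0.628 times that of DMSO (adjusted p = 0.00598). Nop10 was called in all 16 alternative settings (adjusted p from 0.00333 to 0.0287), the only member for which this held.

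The stretch upstream of the start of these 2 genes is shown because they mark the 2 ends of the range among called members. Both are from RefSeq, build GRCm38.p6, plus strand, 250 bases ending just before the annotated start: chr6:125131633-125131882 for Nop2 and chr2:112261676-112261925 for Nop10. Capitals mark matches to the searched motifs CACGTG (the E-box bound by MYC), CCGGAAG (bound by ETS factors), GGGCGG (bound by SP factors) and CCAAT (bound by NF-Y), on either strand.
Nop2: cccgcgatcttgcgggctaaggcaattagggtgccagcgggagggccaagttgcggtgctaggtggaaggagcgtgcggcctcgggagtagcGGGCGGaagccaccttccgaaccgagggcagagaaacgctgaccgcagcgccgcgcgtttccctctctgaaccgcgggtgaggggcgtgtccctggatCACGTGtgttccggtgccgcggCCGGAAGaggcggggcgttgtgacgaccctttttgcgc
Nop10: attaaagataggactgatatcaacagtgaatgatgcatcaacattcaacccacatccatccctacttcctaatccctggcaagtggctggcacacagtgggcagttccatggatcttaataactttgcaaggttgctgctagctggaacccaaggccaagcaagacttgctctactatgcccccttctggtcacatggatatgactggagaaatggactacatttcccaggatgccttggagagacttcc
The Nop2 stretch held 3 matches, which began 158 (GGGCGG), 60 (CACGTG) and 38 bases (CCGGAAG) before the start. The Nop10 stretch held none of the 4 motifs.

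Over whole promoter entries (250 bases before to 50 after the start, both strands), 47 of the 52 members matched by symbol, with 56 entries. CACGTG was in 17.9% of member entries and 7.15% of all 32851 entries. CCGGAAG was in 30.4% and 8.86%, GGGCGG in 71.4% and 35.7%, and CCAAT in 28.6% and 37.4%. Entries of the brighter genes, the closer background, were not counted apart, so these shares do not show motifs particular to the members. Of the 6 called higher members with an entry, CACGTG was in 2 (Nop2 and Wdr43), CCGGAAG in 3 (Heatr1, Noc3l and Nop2), GGGCGG in 4 and CCAAT in 0. Both called lower members, Nop10 and Polr1a, had CCAAT and none of the other 3; in Nop10 the match lay past the printed stretch. CACGTG is its own reverse complement, these motifs overlap no searched motif in the printed stretches, and a match to letters describes the sequence only.

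Among the genes of RNA polymerase I, the largest subunit gene was the only one called. Polr1a, that catalytic subunit, read 6.62, 6.83 and 6.50 in the Torin1 samples and 7.57, 7.10 and 7.26 in the DMSO samples. The groups did not overlap, and Polr1a fell by 0.66 ± 0.14 (SE; adjusted p = 0.0262), to 0.632 times that of DMSO. Leaving out DMSO 1, DMSO 3 or Torin1 1 ended this call (adjusted p = 0.0628, 0.0807 and 0.0815). The other 6 were not called by limma (0 at an unadjusted p below 0.05), and their changes ran from -0.05 to 0.28.

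Polr1c, a subunit shared with RNA polymerase III, read 6.62, 6.83 and 7.13 in the Torin1 samples and 6.61, 6.58 and 6.53 in the DMSO samples. Torin1 sample 1 lay next to the DMSO values while sample 3 was well above them, and the change of 0.28 ± 0.13 was not called (adjusted p = 0.245). Rrn3, the initiation factor through which MTOR is known to act on the polymerase, read 7.28, 7.31 and 7.07 in Torin1 and 7.31, 6.99 and 7.28 in DMSO. Its groups overlapped fully, with a change of 0.03 (95% interval -0.24 to 0.30; adjusted p = 0.946) whose sign changed without DMSO 2, Torin1 1 or Torin1 2 (-0.07, -0.002 and -0.02). Ubtf, which binds and opens the ribosomal RNA genes, read 7.77, 7.72 and 7.82 in Torin1 and 8.04, 7.70 and 7.73 in DMSO. Its change was -0.05 (95% interval -0.31 to 0.20; adjusted p = 0.861) and turned to 0.06 without DMSO 1.

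Polr1e, which encodes a subunit of the polymerase's own initiation module, read 5.16, 5.33 and 5.30 in Torin1 and 5.35, 5.02 and 5.11 in DMSO (0.10 ± 0.11; adjusted p = 0.690). The groups overlapped, as they did for Polr1b, the second-largest subunit (0.10 ± 0.17), and Polr1d, the other subunit shared with polymerase III (0.04 ± 0.11).

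The core proteins of the snoRNPs went in both directions. Besides Nop10, 5 measured members were not called, and the median of the 6 was 0.04. It was 0.19 without DMSO 1, 0.10 without Torin1 1, and -0.03, -0.03 and -0.002 without DMSO 2, DMSO 3 and Torin1 3. Nhp2, which binds next to Nop10 in the H/ACA particle, read 6.21, 6.17 and 6.37 in the Torin1 samples and 6.84, 6.46 and 6.38 in the DMSO samples. Torin1 sample 3 and DMSO sample 3 nearly touched, and the change of -0.31 ± 0.13 was not called (adjusted p = 0.220). The other H/ACA proteins, the pseudouridine synthase Dkc1 and Gar1, had changes of 0.02 ± 0.14 and 0.18 ± 0.14 with overlapping groups. Nop56, a scaffold of box C/D snoRNPs, which guide methylation, read 7.94, 7.97 and 8.20 in Torin1 and 7.89, 7.61 and 7.69 in DMSO. Its groups were separate, though DMSO sample 1 lay just under Torin1 sample 1, and the change of 0.31 ± 0.11 was not called (adjusted p = 0.134). The 2 dimmer probe sets of Nop56 gave 0.11 and -0.06. Its partner Nop58 changed by 0.07 ± 0.14.

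Small subunit factors leaned higher: limma called 4 of 18 higher (22.2%, beside 9.46% of the brighter genes) and 0 lower, and left 14 uncalled. At an unadjusted p below 0.05 there were 7 higher (38.9%, beside 19.6%) and 0 lower. Their median was 0.24, which was 0.15 without DMSO 2 and between 0.19 and 0.32 without any other array. A change above 0 was seen in 16 (88.9%, beside 51.8% of the brighter genes). The called genes belong to both ends of the route. Wdr43 and Heatr1 are parts of the assembly that first binds the nascent precursor and is also needed for polymerase I transcription. Rrp12 and Nob1 act late, Rrp12 in export of the particle and Nob1 as the nuclease that makes the final cut of the small subunit RNA.

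Wdr43 read 7.55, 7.53 and 7.68 in the Torin1 samples and 7.37, 7.07 and 7.03 in the DMSO samples (0.43 ± 0.11; adjusted p = 0.0469). Heatr1 read 6.44, 6.68 and 6.60 in Torin1 and 6.28, 6.11 and 6.20 in DMSO (0.38 ± 0.09; adjusted p = 0.0371). In both genes the groups were separate and DMSO sample 1 was the highest of the controls. Rrp12 read 5.70, 5.94 and 5.65 in Torin1 and 5.40, 4.92 and 5.15 in DMSO (0.60 ± 0.14, or 1.52-fold; adjusted p = 0.0347). Nob1 read 6.62, 6.57 and 6.87 in Torin1 and 6.31, 6.04 and 6.08 in DMSO (0.54 ± 0.11, or 1.46-fold; adjusted p = 0.0239). These groups were separate too, again with DMSO sample 1 nearest to the Torin1 values.

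Each of these 4 calls ended in several of the leave-outs, while the changes stayed above 0. Across the leave-outs they ran from 0.37 to 0.54 for Wdr43 and from 0.33 to 0.45 for Heatr1. Those of Rrp12 ran from 0.48 to 0.73 and those of Nob1 from 0.45 to 0.63. Wdr43 was called only without DMSO 1 (adjusted p = 0.0232) among the leave-outs, with 0.143, 0.156, 0.103, 0.0923 and 0.0887 without DMSO 2, DMSO 3, Torin1 1, Torin1 2 and Torin1 3. Heatr1 was called only without Torin1 1 (0.0411), with 0.0694 and 0.116 without DMSO 1 and either other DMSO sample, and 0.108 and 0.0654 without Torin1 2 and Torin1 3. For Rrp12 the call ended on leaving out DMSO 2 (0.0898), DMSO 3 (0.110), Torin1 1 (0.0804) or Torin1 2 (0.0996). For Nob1 it ended on leaving out DMSO 2 (0.0842), DMSO 3 (0.0938) or Torin1 1 (0.0584).

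Of the small subunit members that were not called, Bysl, a late factor of the pre-ribosome, read 5.90, 5.97 and 6.01 in Torin1 and 5.84, 5.34 and 5.63 in DMSO (0.36 ± 0.13; adjusted p = 0.140). Utp18, of the early processome, read 7.13, 7.28 and 7.13 in Torin1 and 7.05, 6.58 and 6.97 in DMSO (0.31 ± 0.13; adjusted p = 0.208). Both had separate groups, with a narrow gap at DMSO sample 1. Utp20, a scaffold of the processome, had separate groups as well (0.26 ± 0.11; adjusted p = 0.195). The remaining 11 had overlapping groups and changes from -0.17 for Dimt1 to 0.30 for Ddx10. They include the enzymes that modify small subunit RNA, namely the dimethylase Dimt1 (-0.17 ± 0.11), the methyltransferase Emg1 (0.13 ± 0.08) and the acetyltransferase Nat10 (0.25 ± 0.13). Wdr75 and Utp15, which sit with Wdr43 and Heatr1 in the early assembly, had changes of 0.24 ± 0.11 and -0.11 ± 0.19.

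Large subunit factors resembled the small subunit ones in direction. By limma 3 of 14 members were higher (21.4%, beside 9.46% of the brighter genes), 0 lower (beside 12.6%) and 11 uncalled. At an unadjusted p below 0.05 there were 5 higher (35.7%, beside 19.6%) and 0 lower (beside 21.6%). Their median was 0.15, and 12 had a change above 0 (85.7%, beside 51.8% of the brighter genes). Besides Nop2, described above with its promoter, the called members were Gnl3 and Noc3l. Gnl3 (nucleostemin), a nucleolar GTPase of proliferating cells, read 7.58, 7.73 and 7.83 in Torin1 and 7.40, 7.03 and 7.19 in DMSO (0.51 ± 0.12, or 1.42-fold; adjusted p = 0.0327). Noc3l, whose yeast counterpart works in the transport of early large-subunit particles, read 5.73, 6.11 and 5.85 in Torin1 and 5.53, 5.22 and 5.42 in DMSO (0.51 ± 0.13; adjusted p = 0.0426). Both had separate groups with DMSO sample 1 nearest.

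These 3 calls also ended in most of the leave-outs, while the changes stayed above 0. Across the leave-outs they ran from 0.53 to 0.81 for Nop2, 0.42 to 0.60 for Gnl3 and 0.40 to 0.59 for Noc3l. Nop2 was called only without DMSO 1 (adjusted p = 0.0290) among the leave-outs, with 0.133, 0.150, 0.0922, 0.0777 and 0.0827 without DMSO 2, DMSO 3, Torin1 1, Torin1 2 and Torin1 3. Gnl3 was called without DMSO 1 or Torin1 1 (0.0306 and 0.0494), and not without DMSO 2 (0.0936), DMSO 3 (0.109), Torin1 2 (0.0904) or Torin1 3 (0.0610). Noc3l was called in 0 of the 6, with 0.0649, 0.125 and 0.116 without DMSO 1, 2 and 3, and 0.0513, 0.101 and 0.0563 without Torin1 1, 2 and 3.

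Noc2l, a partner of Noc3l in the yeast pathway, read 8.06, 8.12 and 8.51 in Torin1 and 8.09, 7.59 and 7.68 in DMSO. DMSO sample 1 lay above Torin1 sample 1, so the groups overlapped, and the change of 0.44 ± 0.17 was not called (adjusted p = 0.168). Ebna1bp2, a nucleolar factor of the large subunit route, read 6.67, 6.65 and 6.51 in Torin1 and 6.45, 6.34 and 6.33 in DMSO, with separate groups (0.24 ± 0.08; adjusted p = 0.121). The PeBoW complex, made of Pes1, Bop1 and Wdr12 and needed for maturation of the large subunit RNA, moved little, with changes of 0.08 ± 0.10, 0.09 ± 0.16 and 0.05 ± 0.12. Nmd3, the export adaptor of the large subunit, changed by 0.01 ± 0.08 (95% interval -0.18 to 0.20). Its dimmer probe set gave -0.15.

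None of the 5 nucleolar proteins with several roles was called by limma. All 5 had a change above 0 (median 0.29), as did 51.8% of the brighter genes. By limma 3 of the 5 were higher at an unadjusted p below 0.05 (60%, beside 19.6% of the brighter genes). Ddx21, an RNA helicase that couples polymerase activity to processing, read 7.90, 8.10 and 8.35 in Torin1 and 7.86, 7.33 and 7.38 in DMSO. The groups were barely separate at DMSO sample 1, and the change of 0.59 ± 0.17 had an adjusted p of 0.0739, which became 0.0317 without DMSO 1. The dimmer probe set of Ddx21 gave 0.22. Lyar, a nucleolar protein of growing cells, read 7.74, 7.79 and 8.08 in Torin1 and 7.62, 7.43 and 7.54 in DMSO (0.34 ± 0.11; adjusted p = 0.107).

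Ncl (nucleolin) and Npm1 (nucleophosmin), abundant nucleolar proteins whose messages are known targets of MTOR at the level of translation, moved less. Ncl read 9.61, 9.57 and 9.76 in Torin1 and 9.69, 9.46 and 9.38 in DMSO (0.14; 95% interval -0.11 to 0.39; adjusted p = 0.527). Npm1 read 10.29, 10.19 and 10.62 in Torin1 and 10.37, 10.32 and 10.27 in DMSO (0.05; 95% interval -0.23 to 0.33; adjusted p = 0.896). Both overlapped between groups, and in Npm1 Torin1 sample 3 alone exceeded the DMSO values; without it the change was -0.08. Mybbp1a, a nucleolar regulator of transcription, changed by 0.29 ± 0.12 with overlapping groups.

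**Figure D2:**
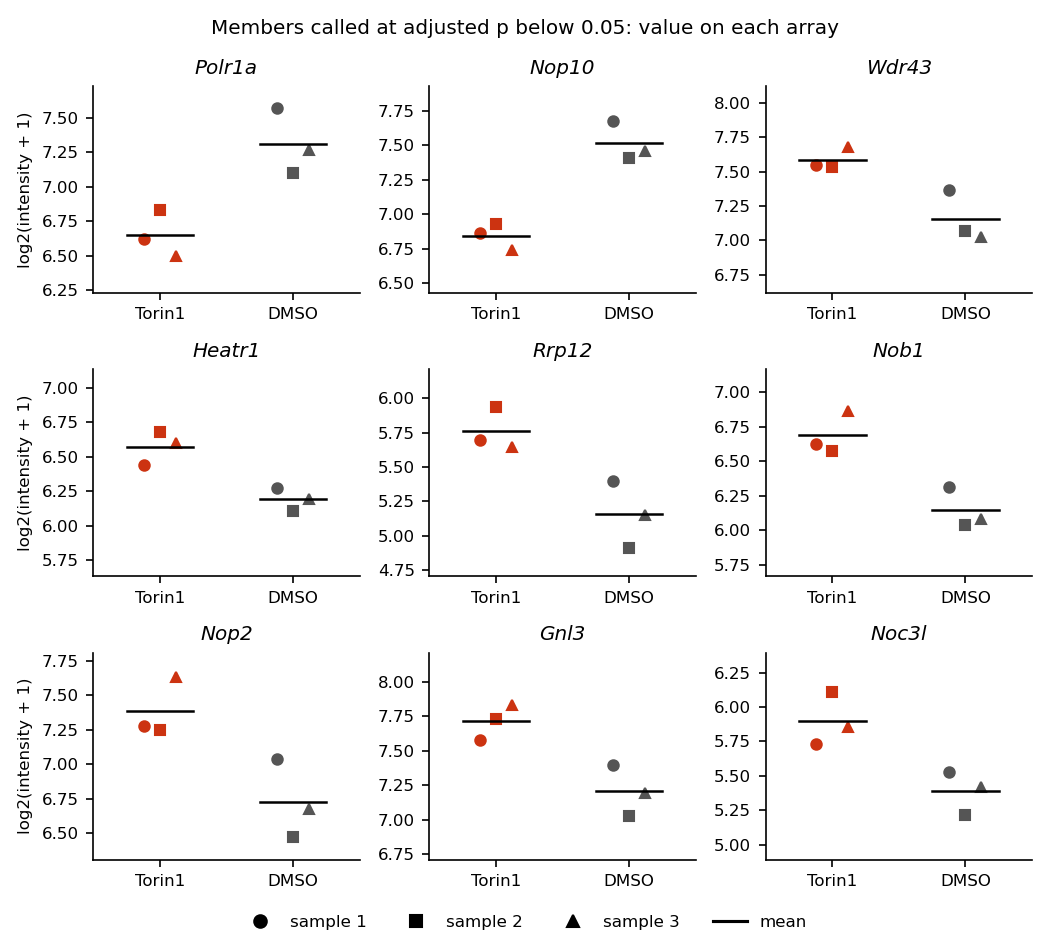
Log2(intensity + 1) of the 9 called members on each array, with Torin1 left and DMSO right in each panel; symbols give the sample number and lines the group mean. All panels span the same range of log2 units, no panel shows overlapping groups, and DMSO sample 1 (circle) is the highest control in each.

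The members moved together between replicates of the vehicle. DMSO sample 1 was the highest of the 3 DMSO arrays for 45 of 50 members (90.0%), whereas it was the highest for 37.8% of the brighter genes, and DMSO sample 2 was the lowest for 35 members. Set against each gene's DMSO mean, the median over members was 0.08, 0.18 and 0.24 in Torin1 samples 1, 2 and 3, against 0.17, -0.12 and -0.04 in DMSO samples 1, 2 and 3. DMSO sample 1 therefore lay above Torin1 sample 1, and for the list's median the groups overlapped. By role, polymerase I genes stood at 0.00, 0.12 and -0.01 in Torin1 against 0.19, -0.14 and -0.05 in DMSO, and the snoRNP core at -0.08, 0.06 and 0.13 against 0.22, -0.10 and -0.12. Small subunit factors stood at 0.14, 0.33 and 0.30 in Torin1 against 0.16, -0.15 and 0.01 in DMSO, and large subunit factors at 0.06, 0.19 and 0.16 against 0.14, -0.11 and -0.03. Only the 5 nucleolar proteins had separate medians, at 0.21, 0.20 and 0.46 in Torin1 and 0.18, -0.10 and -0.10 in DMSO. The brighter genes as a whole ran from -0.01 to 0.05 in Torin1 and from -0.05 to 0.03 in DMSO.

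Oocyte markers moved in the same direction as the members between groups. All 18 had a change above 0 (median 0.20; 2 called higher), and their summed intensity was 10292 to 11104 in Torin1 and 9202 to 9748 in DMSO. They did not follow DMSO sample 1, where their median stood at -0.05, the lowest of the 6 arrays. Of 14 cumulus and granulosa markers 12 were called lower, and 1, the inhibin subunit gene Inhba, was called higher by 2.06 (adjusted p = 0.00144); the list had a summed intensity of 3796 to 4382 in Torin1 and 6900 to 7037 in DMSO. The part of either shift in the members' values was not tested.

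**Figure D3:**
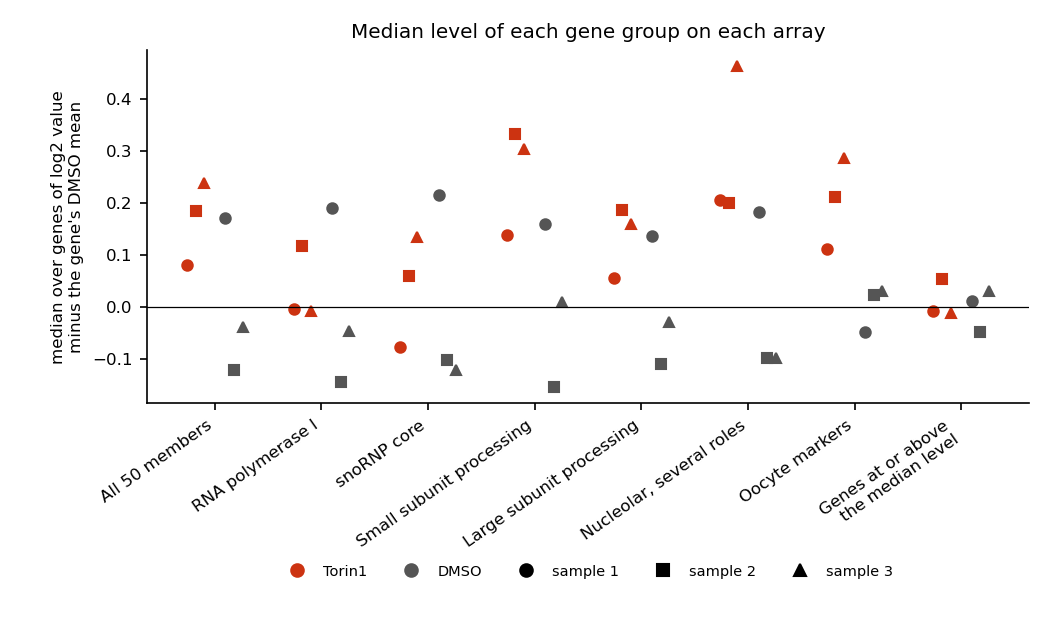
Median over each gene group of the log2 value minus the gene's DMSO mean (y axis), for each Torin1 (red, left) and DMSO (grey, right) array; symbols give the sample number. DMSO sample 1 stands at 0.17 for all members, between Torin1 samples 1 (0.08) and 2 (0.18), while the oocyte markers separate the groups.

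Other genes of the pathway, 190 listed and 174 measured, were set beside the members. Limma called 17 of them higher and 5 lower and left 152 uncalled, or 9.77% higher and 2.87% lower, shares close to or below those of the brighter genes (9.46% and 12.6%). Of 43 further large subunit factors 7 were called higher (16.3%) and 0 lower by limma, with a median of 0.24, and 16 (37.2%, beside 19.6% of the brighter genes) and 0 had an unadjusted p below 0.05. Of 36 further small subunit factors 3 were higher (8.33%) and 0 lower, with a median of 0.14, and 7 (19.4%) and 0 had an unadjusted p below 0.05, so their share of higher calls lay near that of the brighter genes.

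Urb1, a scaffold of the early large-subunit particle, was the strongest of them. It read 6.54, 6.63 and 6.56 in the Torin1 samples and 5.70, 5.51 and 5.70 in the DMSO samples. The 3 arrays of each group lay close together with a wide gap between groups, and Urb1 rose by 0.94 ± 0.08 (SE; adjusted p = 0.000752), with a call in all 16 alternative settings. Nol9, a kinase of large-subunit RNA processing, and Zfp622, a late assembly factor, rose by 0.51 ± 0.13 and 0.45 ± 0.11 (adjusted p = 0.0495 and 0.0431), and each lost its call in 4 or more of the 6 leave-outs (adjusted p up to 0.150 without DMSO 3 and 0.147 without DMSO 3). Among small subunit factors Esf1, Riok3 (a kinase of late maturation) and Mphosph10 rose by 0.49 ± 0.11, 0.47 ± 0.09 and 0.42 ± 0.10 (adjusted p = 0.0340, 0.0186 and 0.0397). These were called in 1, 3 and 1 of the 6 leave-outs, with the highest adjusted p at 0.0933 (without Torin1 2), 0.0707 (without DMSO 1) and 0.122 (without DMSO 2).

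Further subunits and partners of polymerase I had a median of 0.00, with 1 of 18 called higher (5.56%) and 3 lower (16.7%). Of the brighter genes 9.46% were called higher and 12.6% lower, so the share of lower calls lay near that background. Twistnb, the gene now also called Polr1f, a partner of Polr1a in the polymerase, read 6.31, 6.55 and 6.87 in Torin1 and 7.45, 7.26 and 7.0 in DMSO. Its groups were separate but close at sample 3 of each, and it fell by 0.66 ± 0.17 (adjusted p = 0.0489), the size seen in Polr1a, with a call only without Torin1 3 among the leave-outs (0.0148; otherwise up to 0.150 without DMSO 1). Polr2f, a subunit shared by all 3 nuclear polymerases, fell by 0.45 ± 0.08 (adjusted p = 0.0157; up to 0.0542 without DMSO 1), and Cavin1, a transcript release factor of the polymerase that also builds caveolae, by 0.82 ± 0.20 (adjusted p = 0.0401; up to 0.134 without DMSO 3). Nolc1, a chaperone of snoRNPs, rose by 0.37 ± 0.07 (adjusted p = 0.0162; up to 0.0622 without DMSO 1).

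RNA polymerase III, which makes the smallest ribosomal RNA, had 2 of 20 genes called higher (10.0%) and 1 lower (5.0%), beside 9.46% and 12.6% of the brighter genes. Polr3d and Bdp1, a subunit and an initiation factor, rose by 0.72 ± 0.15 and 0.50 ± 0.12, and the subunit gene Polr3g fell by 0.73 ± 0.14 (adjusted p = 0.0247, 0.0411 and 0.0159; without DMSO 3, 0.0959, 0.101 and 0.0658). Maf1, the polymerase III repressor that MTOR inhibits, read 6.42, 6.51 and 6.69 in Torin1 and 6.53, 6.34 and 6.58 in DMSO, and was not called (0.06 ± 0.10; adjusted p = 0.841). Its sign changed without DMSO 2 or Torin1 3. Of 11 snoRNP assembly factors 0 were called by limma, and only Pih1d1 (-0.28 ± 0.11; adjusted p = 0.171) had an unadjusted p below 0.05. Of 15 genes for nucleases of ribosomal RNA processing and their partner proteins 2 were called higher (13.3%). Xrn2 rose by 0.46 ± 0.10 and Isg20l2 by 0.42 ± 0.10 (adjusted p = 0.0283 and 0.0369). Each was called in 1 of the 6 leave-outs (adjusted p up to 0.0913 without DMSO 2 and 0.124 without DMSO 3).

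Of 14 regulators upstream of the pathway only Mnt, which encodes a repressor that competes with MYC for its partner MAX, was called. Mnt read 6.72, 6.82 and 6.71 in Torin1 and 6.12, 6.07 and 6.24 in DMSO, and it rose by 0.60 ± 0.08 (adjusted p = 0.00401), with a call in all 16 alternative settings. Myc, the activator of many members, read 6.07, 5.76 and 7.82 in Torin1 and 8.04, 7.63 and 7.52 in DMSO. Torin1 samples 1 and 2 were far below the DMSO arrays while sample 3 lay among them, so the groups overlapped and the change of -1.18 ± 0.50 was not called (adjusted p = 0.210). Without Torin1 3 it was -1.82 with an adjusted p of 0.00103. Among the members, Torin1 sample 3 was the highest Torin1 array for 29 of 50, sample 2 for 20 and sample 1 for 1, beside 33.8%, 47.2% and 19% of the brighter genes.

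**Figure D4:**
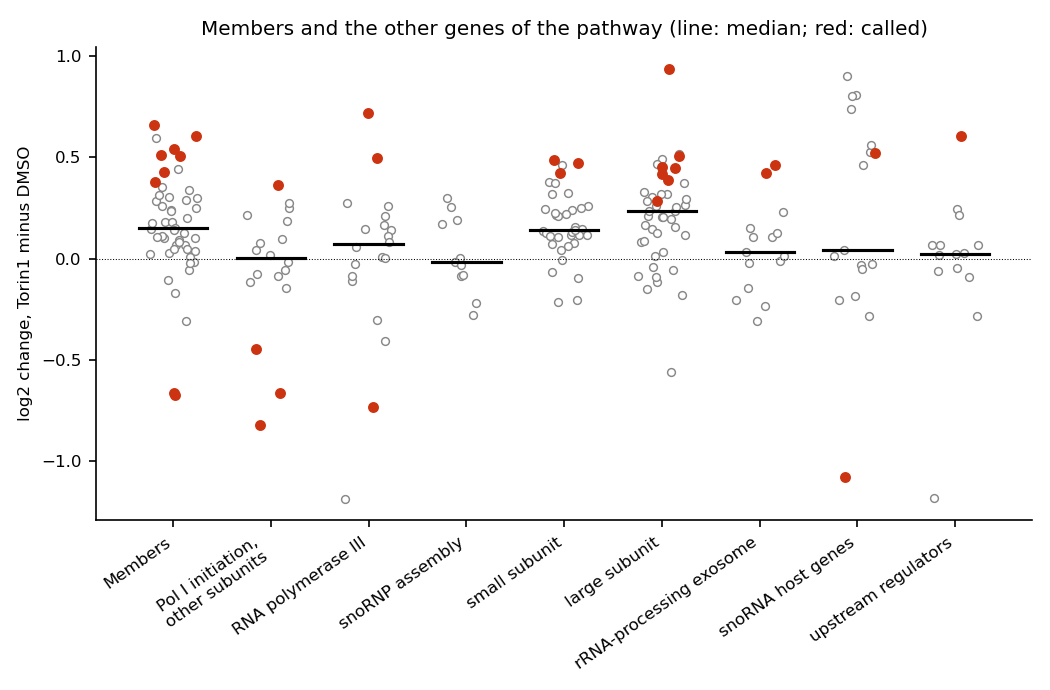
Log2 change (Torin1 minus DMSO, y axis) of each measured gene, in the members and in 8 further lists of the pathway. Each point is a gene, red where called at an adjusted p below 0.05, and the line is the list's median. This median is highest for the further large subunit factors (0.24), then the members (0.15) and the further small subunit factors (0.14). In the remaining lists it lies between -0.02 (snoRNP assembly) and 0.07 (RNA polymerase III).

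Several members carry snoRNA genes inside their introns. By the RefSeq annotation 19 snoRNA genes lie within members, of which 10 were measured, in 6 host genes, and 1 was called. Snora75, within Ncl, rose by 0.77 ± 0.10 (adjusted p = 0.00401) from a dim level (means of 3.51 in Torin1 and 2.74 in DMSO, below the median gene at 4.17), so its size is uncertain. Ncl itself was not called.

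**Figure D5:**
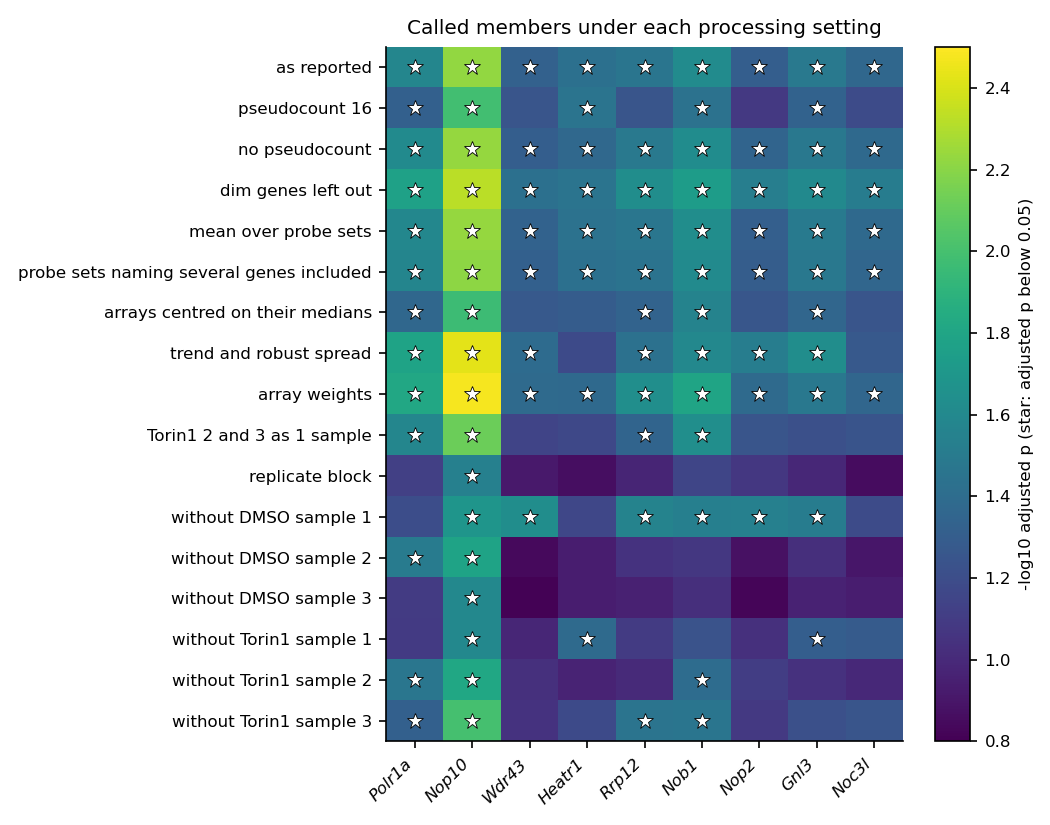
Adjusted p (colour, as -log10) of the 9 called members (columns) in the reported setting and in 16 alternative settings (rows), with a star where it is below 0.05. Nop10 has a star in every row and Noc3l in none of the 6 rows that leave out a sample.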

How the data were processed

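The authors deposited a table of linear intensities with a value for each probe set on each array. The submitters' processing notes name RMA, GCOS and Affymetrix Expression Console 1.1, without settings or order. As RMA equalises arrays, changes are measured against the bulk of transcripts. RNA was amplified with the NuGEN Ovation Pico WTA kit, per the labels' protocols. The number of arrays limits the precision.

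The deposited intensities are linear, so log2(intensity + 1) was used. Of 41345 probe sets 23521 named 1 gene, 1814 several and 16010 none; the brightest of a gene was kept, giving 22180 genes. Current symbols were checked against RefSeq (GRCm38.p6). Torin1 was compared with DMSO with limma 3.58.1 in R 4.3.3 (lmFit, eBayes, two-sided, no covariate), with Benjamini-Hochberg adjustment over all genes. Each p in the text is from this fit. Where a left-out array or an alternative setting is named, it is from limma refitted that way. In a simulation of this comparison, known changes were given to 50 genes per size. Of these, limma recovered 0% at a log2 change of 0.3, 24% at 0.5, 52% at 0.7 and 82% at 1. False calls numbered 3 over all sizes. The simulation changed far fewer genes than the 2678 called in the real comparison, which makes the adjustment stricter. Its recovery may therefore be lower than that of the real fit. A member that was not called may still have changed. Figures were drawn with matplotlib 3.10.9.

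Members, roles and lists were chosen with earlier results of these data known. Named genes are the called members, the 2 largest uncalled changes per role, 6 fixed genes (Polr1a, Rrn3, Ubtf, Fbl, Ncl, Npm1), Myc, Maf1 and up to 3 called genes per direction of each further list (the smallest p where none was called). Other members named in the text complete their roles. Polr1f was matched as Twistnb, and Polr1g and Polr1h as Cd3eap and Znrd1. The alternatives were other pseudocounts, a filter on dim genes, other probe set rules, centring, other spread models, merging Torin1 2 and 3, a replicate block and leaving out each array.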

Additional observations from a re-analysis of the deposited data

How the results depend on the processing

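The number of members called higher was 3 with a pseudocount of 16, 3 with arrays centred on their medians, 2 with Torin1 samples 2 and 3 as 1 sample and 0 to 6 when an array was left out, against 7 as reported. Members called lower numbered 1 to 2 in the leave-outs, against 2. Called members among the named ones numbered 5, 5 and 4 under these 3 settings and 1 to 7 in the leave-outs, against 9. The replicate number as a block gave 0 members higher, 1 lower and 1 called among those named; it gave 1565 genes in place of 2678, and 2 higher and 1 lower among the other pathway genes, in place of 17 and 5. The labels do not state whether the numbers pair the samples. Deviations from the group mean correlated at -0.21, -0.30 and -0.15 between same-numbered samples, and no sample correlated best with its own number. The highest values were 0.31 (Torin1 1 with DMSO 2) and 0.305 (Torin1 2 with DMSO 3). As the deviations of a group sum to 0 for each gene, these correlations depend on each other and cannot settle whether samples were paired. Over all genes the leave-outs gave 1518 to 3083 calls. Other pathway genes called higher numbered 3 to 17 in the leave-outs, and those called lower 0 to 7, with 3 under a pseudocount of 16. The median change of the members stayed above 0 throughout (0.11 to 0.24), but that of the snoRNP core ran from -0.03 to 0.19 in the leave-outs. Signs near 0 changed for uncalled genes. With array weights the change was -0.0058 for Npm1 and -0.0186 for Maf1. In the leave-outs Maf1 ran from -0.0172 to 0.1208, Npm1 from -0.0786 to 0.1376, Rrn3 from -0.0746 to 0.1005 and Ubtf from -0.1171 to 0.0567. The cause was not tested. Changes of members are mostly below 0.5, where 3 arrays per group leave standard errors of about 0.08 to 0.19.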

Other observations

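Several transcripts that host snoRNAs in their introns differed between Torin1 sample 3 and the other Torin1 samples, in both directions. Of 17 measured host genes, 9 (52.9%) had their highest value of all 6 arrays in that sample, beside 21.3% of the brighter genes and 24% of all genes. In 5 hosts that sample lay below the mean of Torin1 samples 1 and 2, most in Snhg18, Snhg20 and Snhg3 (-0.69, -0.59 and -0.31), and in 4 it exceeded the mean of Torin1 samples 1 and 2 by more than 0.9 (Snhg5, Snhg6, Snhg12 and Zfas1, chosen after their values were seen). Zfas1 read 8.67, 8.68 and 9.71 in Torin1 samples 1, 2 and 3 and 7.96, 8.21 and 8.19 in the DMSO samples. Its groups were separate, but the change of 0.90 was not called (adjusted p = 0.0846); without Torin1 3 it was smaller, at 0.56, and called (adjusted p = 0.0144). Snhg6 read 9.31, 9.14 and 10.16 in Torin1 and 8.60, 8.78 and 8.81 in DMSO, with a change of 0.81 (adjusted p = 0.0909), which was 0.50 (adjusted p = 0.0228) without that sample. Snhg12 read 5.75, 5.84 and 6.85 in Torin1 and 5.41, 5.21 and 5.40 in DMSO (0.81; adjusted p = 0.122), and gave 0.46 (adjusted p = 0.0251) without it. Snhg5 read 5.22, 5.54 and 6.86 in Torin1 and 5.29, 5.02 and 5.09 in DMSO, so Torin1 sample 1 lay among the DMSO values. The 2 called hosts were Snhg17, which rose by 0.52 ± 0.11 (adjusted p = 0.0270), and Cep83os, which fell by 1.08 ± 0.20 to a dim level (adjusted p = 0.0145); without DMSO 2 and without DMSO 3 these gave adjusted p of 0.0926 and 0.0549.

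Among 78 genes named as snoRNAs 6 were called higher (7.69%, beside 5.13% of all genes) and 1 lower (1.28%, beside 6.94%). A change above 0 was seen in 62 (79.5%, beside 52.8%; median 0.17). Of the 37 at or above the median gene 3 were called higher (8.11%, beside 9.46% of the brighter genes) and 1 lower. Snord65 was the largest, with 6.38, 6.46 and 6.96 in Torin1 and 4.95, 5.17 and 4.93 in DMSO, a rise of 1.58 ± 0.16 (adjusted p = 0.00140). Snord42b read 5.91, 6.10 and 6.02 in Torin1 and 5.12, 5.01 and 4.67 in DMSO (1.08 ± 0.13; adjusted p = 0.00262). Snora33, on the lower side, fell by 0.37 ± 0.09 (adjusted p = 0.0333), a call that held only without Torin1 1 among the leave-outs (0.0339) and ended without DMSO 1, 2 or 3 (0.0890, 0.106 and 0.102) or Torin1 2 or 3 (0.0982 and 0.0611). Snord65 and Snord42b were called in all 6. Whether such probe sets read the mature snoRNA or its host transcript was not tested.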
